A study of Homo sapiens with 4 samples.

Results

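The proteasome is the protease complex that degrades proteins marked with ubiquitin, and its genes were examined in a clear cell renal carcinoma cell line with and without the tumor suppressor VHL. Genes were taken by symbol, as every entry of the count table that starts with PSMA, PSMB, PSMC, PSMD, PSME, PSMF or PSMG followed by a digit. This gave 41 of 12912 genes, and all 41 had enough counts to be tested. Of these, 40 encode subunits, activators, an inhibitor or assembly chaperones, while PSMC3IP is named after a proteasome subunit without being part of the complex and is also left out in a separate count. The standard subunit names hold 46 symbols, and 6 of them (PSMB3, PSMB8, PSMB9, PSMC4, PSME1 and PSME2) were not analysed here. PSMB10 is therefore the only immunoproteasome gene with values.

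The core particle of the proteasome is a barrel of stacked rings, with alpha subunits at the ends and beta subunits inside. The beta subunits PSMB5, PSMB6 and PSMB7 carry the chymotrypsin-like, caspase-like and trypsin-like activities, and interferon-inducible PSMB8, PSMB9 and PSMB10 take their places in the immunoproteasome, which makes peptides well suited to class I antigen presentation. The regulatory particle caps the barrel: its base unfolds substrates with ATPases, and its lid removes ubiquitin. VHL is the substrate receptor of a cullin ubiquitin ligase that sends HIF alpha subunits to this complex, and its loss is the hallmark of clear cell renal carcinoma.

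RNA-seq libraries of total RNA were made from 786-O, an established VHL-null line, in 2 groups of 2 libraries. 786-O-Ctrl keeps the VHL-null genotype, and 786-O-VHL carries a retroviral pBabe-puro vector for HA-tagged wild-type VHL. Libraries of both groups are labelled as the triple-reporter version (GFP, luciferase and thymidine kinase from a further retroviral vector), and the labels name no vector control for 786-O-Ctrl. Cells of both groups grew in RPMI1640 with serum and antibiotics. Each group is a single subline, so the comparison is between these sublines, and p-values measure only the spread between their libraries. Bulk libraries cannot tell fewer cells that carry a transcript from less transcript per cell.

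Depth was uneven. Total counts were 22141263 and 15714166 for 786-O-Ctrl, called here the deeper and the shallower library because the same replicate number heads both columns, against 2807779 for 786-O-VHL replicate 1 and 16114120 for 786-O-VHL replicate 2. Levels are given as CPM, which is counts scaled to a common library size with TMM factors that correct for composition, and values of 4 libraries are always listed in the order just given. The limit set by 3 counts was 0.142, 0.199, 1.02 and 0.178 CPM, for counting error only. Between replicates, the median absolute log2 difference of the 41 genes was 0.06 for 786-O-Ctrl and 0.09 for 786-O-VHL.

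The restored gene was checked before the others. VHL (ENSG00000134086.7, chromosome 3, 10183462 to 10195351, plus strand, GRCh37) was at 42.9, 43.9, 178 and 163 CPM. Both 786-O-VHL libraries were thus far above both 786-O-Ctrl libraries, with a log2 fold change (786-O-VHL over 786-O-Ctrl throughout) of 1.96 (SE 0.0706, edgeR FDR 2.86e-19). SE is the standard error, and FDR is the p-value adjusted over all genes tested for the expected share of false calls. Reads cannot be assigned to the vector or to the endogenous gene. Of 10 renal epithelial and carcinoma markers, 9 had counts in every library, among them PAX8, a transcription factor of the renal lineage, at 277, 272, 166 and 137 CPM. LRP2 was not analysed here. In this list VIM, PAX8 and the HIF target CA12 fell most (log2 fold changes of -1.21, -0.90 and -2.91), EPCAM and CDH6 rose (1.20 and 0.45), and the CDH6 value was 0.21 without 786-O-VHL replicate 1, 0.75 without replicate 2 and not called by DESeq2.

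The promoter windows of the 41 genes were searched for 3 motifs of factors known to drive proteasome or immunoproteasome genes. RefSeq windows of 300 bases (250 before and 50 after a gene's start; GRCh38.p14) matched 35 of the 41 genes by symbol, with 44 windows. PSMA7, PSMB1, PSMB6, PSMB7, PSMD4 and PSMG3 were not matched. The letters GAAA followed after any 2 bases by GAAA again, the core of the interferon-stimulated response element, were in 4 of the 44 windows on either strand (9.09%), against 3.57% of all 35116 windows. The genes were PSMB10, PSMA4, PSMB4 and PSMG4. They hold both genes that rose in 786-O-VHL, PSMB10 and PSMA4, but also PSMB4, which fell, and PSMG4, which was not called. The sequences below are read 5′ to 3′ on the strand of the gene, with the motif in capitals.
PSMB10: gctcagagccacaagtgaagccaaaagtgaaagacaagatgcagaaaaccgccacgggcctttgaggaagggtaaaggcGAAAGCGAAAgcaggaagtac
PSMA4: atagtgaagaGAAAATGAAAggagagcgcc
PSMB4: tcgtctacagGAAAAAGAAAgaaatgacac
PSMG4: ttccggggccGAAAGCGAAAgcgcgctcgg
The whole 300-base window of each stretch matches GRCh37 at a single place on its chromosome. For PSMB10 the 100 bases before the start are shown (chr16:67970754-67970853, minus strand), with the motif from -21 to -12, where an annotated PSMB10 exon reaches into it. For PSMA4 (chr15:78832497-78832526, plus strand) and PSMB4 (chr1:151371971-151372000, plus strand), the motif runs from -240 to -231 and from -68 to -59, outside any annotated gene. That of PSMG4 (chr6:3259138-3259167, plus strand) runs from -33 to -24, inside an annotated exon of PSMG4. PSMA4 has 3 windows, and 1 of them holds the motif.

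The letters TGACNNNGC, the core of the antioxidant response element bound by NRF1 (NFE2L1) and NRF2 (NFE2L2), were in 10 of the 44 windows (22.7%) and in 13.3% of all windows. The 10 genes that hold it, PSMA4, PSMC5, PSMD1, PSMD3, PSMD5, PSMD9, PSMD12, PSME4, PSMG1 and PSMG2, had a median log2 fold change of -0.37, and the 25 others with a window had -0.57. The matches of the lid genes PSMD12 and PSMD3 are shown, since these fell most among those whose match lies before the start.
PSMD12: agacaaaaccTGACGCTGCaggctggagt
PSMD3: tcccctttgtTGACTCGGCcatcggcctg
The PSMD12 stretch lies at chr17:65362840-65362868 on the minus strand and the PSMD3 stretch at chr17:38137013-38137041 on the plus strand (GRCh37), both outside annotated genes at the motif. The STAT motif TTCNNNGAA was in 5 of the 44 windows (11.4%) and in 7.66% of all windows, and PSMD2, PSMB5, PSMD3, PSMA2 and PSME3 hold it. These letter matches overlap in single genes (PSMA4, PSMD3) and describe the windows only.

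The comparison of 786-O-VHL with 786-O-Ctrl asked how transcripts of the complex differ between the sublines. Most proteasome genes fell: 30 of 41 were lower in 786-O-VHL (73.2%), 2 were higher and 9 were not called at an edgeR FDR below 0.05. Over all 12335 genes tested, 31.9% were lower and 32.6% were higher. The median log2 fold change was -0.52 over the 41 genes and 0.02 over all genes tested. Without PSMC3IP, 29 of 40 were lower (72.5%), with a median of -0.47 and 5 falls of more than 2-fold. In 32 of the 41 genes both 786-O-VHL libraries were below both 786-O-Ctrl libraries, in 5 they were above, and in 4 the groups overlapped. Over all 12335 genes tested, 4839 were below, 5029 were above and 2467 overlapped in the same way. The falls were mostly moderate, and 6 genes fell more than 2-fold: PSMD2, PSMD1, PSMB6, PSMD4, PSMD13 and PSMC3IP. PSMB10 was the only 1 of the 41 that rose more than 2-fold. Of all 12335 genes tested, 927 fell and 1234 rose more than 2-fold.

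Scaling mattered for the smaller changes. With library totals alone, the median of all genes moved from 0.02 to 0.15 and the calls over all genes moved from 4017 higher and 3939 lower to 5077 and 3097. The proteasome genes then gave 5 higher and 26 lower, and their median lay 0.53 below that of all genes under either scaling. PSMG2, PSMG3 and PSME3 were the added rises, while the signs of PSMA3, PSMD7 and PSMF1, none of them called, turned positive. In sum, the 41 transcripts took 6002, 5850, 3811 and 3879 CPM, a ratio of 0.649 (0.712 with library totals alone). Without PSMD2, the most abundant of them by CPM in 786-O-Ctrl, the ratio was 0.710.

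**Figure D1:**
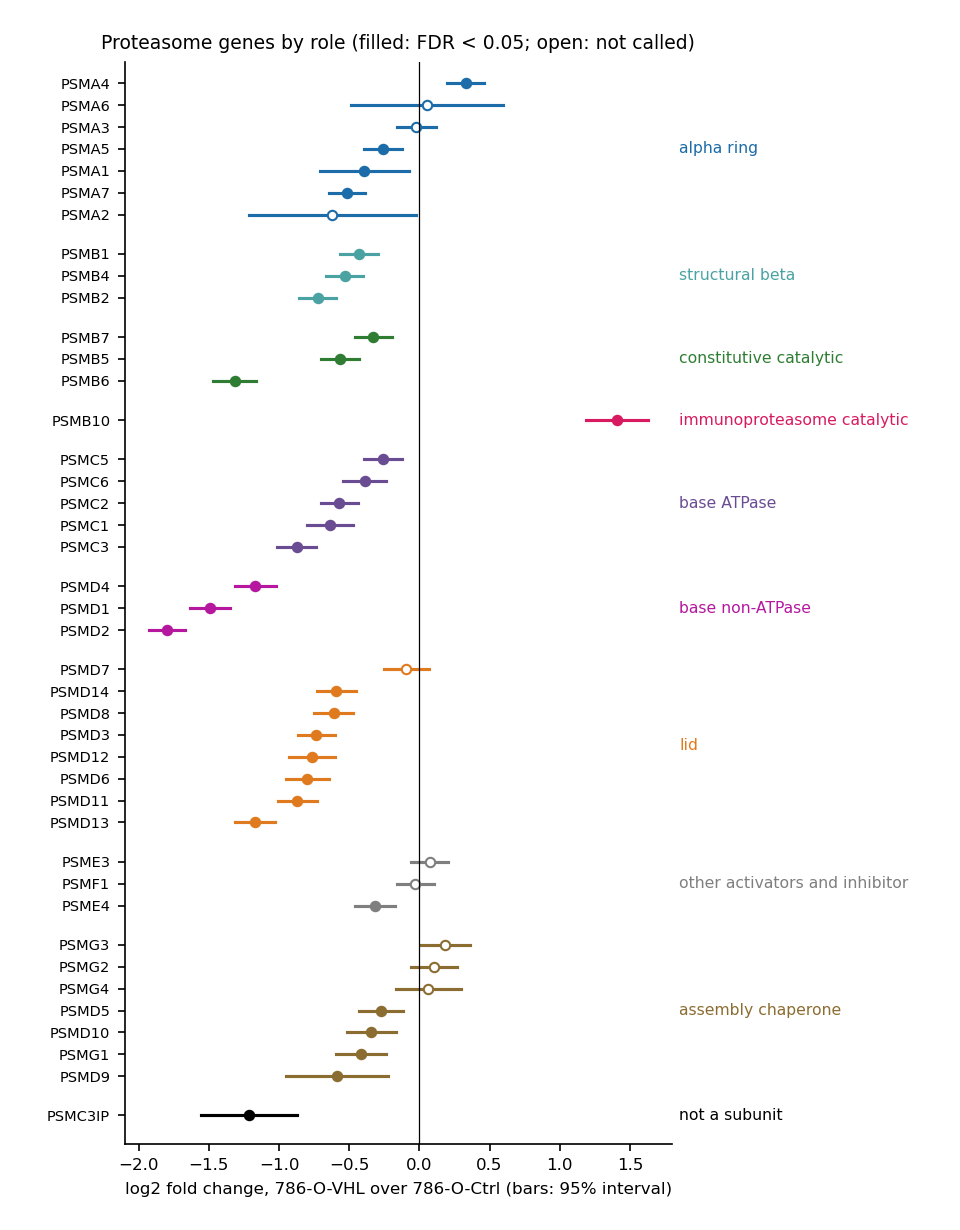
Log2 fold change (horizontal axis, 786-O-VHL over 786-O-Ctrl, 2 libraries each) of the 41 proteasome genes, grouped by role, where bars are 95% intervals and filled points passed an FDR below 0.05. Most points lie left of 0, with PSMD2 at -1.80 as the lowest, and PSMB10 stands alone at 1.41 on the right.

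PSMB10, the immunoproteasome subunit that takes the place of PSMB7, rose. PSMB10 (ENSG00000205220.12, chromosome 16, 67968409 to 67970767, minus strand, GRCh37) was at 17.4, 16.5, 48.5 and 43.8 CPM. The libraries of the groups were well apart, with a log2 fold change of 1.41 (SE 0.107, 95% interval 1.19 to 1.63, edgeR FDR 3.76e-12). These levels rest on 366, 248, 143 and 737 counts. Of all genes tested, 94.3% had a log2 fold change at or below that of PSMB10. Another annotated gene on the same strand, AC040162.1, covers 39.4% of the PSMB10 exons, and it is not known to which of them shared reads were assigned. Its own 24, 12, 8 and 17 counts are few beside those of PSMB10.

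The constitutive catalytic subunits all fell, by unequal amounts. PSMB6, the caspase-like subunit (ENSG00000142507.10, chromosome 17, 4699439 to 4701797, plus strand), was at 119.9, 114, 45.8 and 47.3 CPM, a log2 fold change of -1.32 (SE 0.075, edgeR FDR 7.22e-15). PSMB5, the chymotrypsin-like subunit that proteasome inhibitors such as bortezomib bind (ENSG00000100804.18, chromosome 14, 23485752 to 23504439, minus strand), was at 158, 151, 107 and 104 CPM, a log2 fold change of -0.57 (SE 0.0666, edgeR FDR 2.09e-08). PSMB7, the trypsin-like subunit (ENSG00000136930.13, chromosome 9, 127115744 to 127177723, minus strand), was at 225, 213, 168 and 178 CPM, a log2 fold change of -0.33 (SE 0.0652, edgeR FDR 7.41e-05). For each of the 3 genes both 786-O-VHL libraries were below both 786-O-Ctrl libraries, and the 95% interval of PSMB6 (-1.47 to -1.16) did not meet those of PSMB5 (-0.70 to -0.43) and PSMB7 (-0.46 to -0.20).

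**Figure D2:**
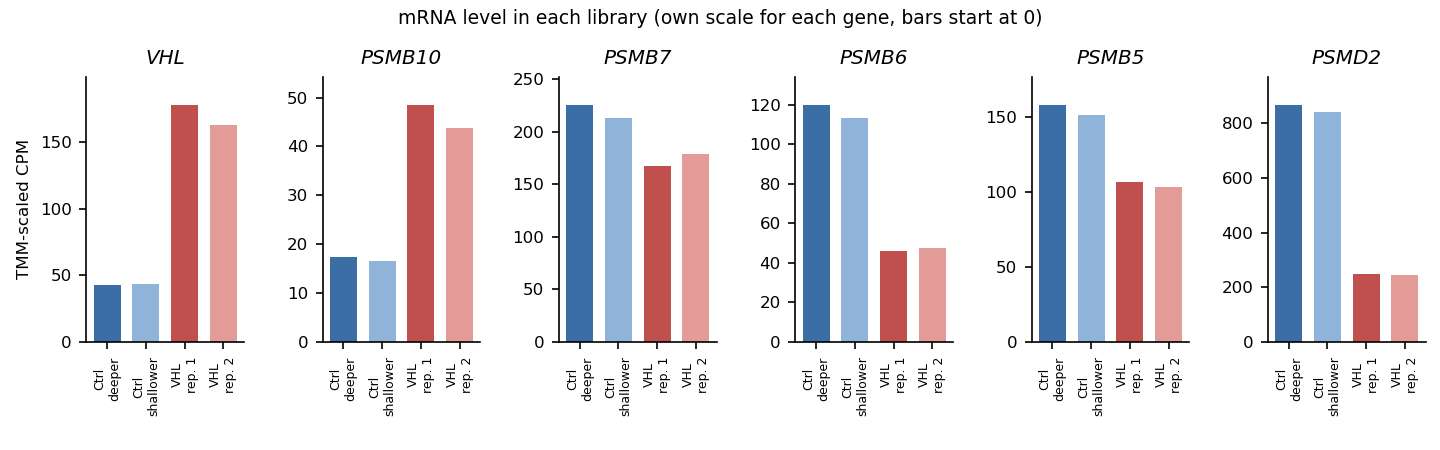
TMM-scaled CPM (vertical axes, each gene with its own scale from 0) of VHL, PSMB10, the constitutive catalytic subunits PSMB7, PSMB6 and PSMB5, and PSMD2 in each of the 4 libraries (bars). In both 786-O-VHL libraries VHL and PSMB10 are higher and the other 4 genes are lower.

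Ratios of counts within a library, which do not depend on the scaling, moved toward PSMB10. For every 100 counts of PSMB7 the libraries held 7.72, 7.73, 28.9 and 24.5 of PSMB10. The mean log2 ratio was 1.79 higher in 786-O-VHL, a 3.45-fold change, against a standard deviation (n = 2) of 0.00239 among 786-O-Ctrl and 0.169 among 786-O-VHL libraries. The two-sided exact permutation p was 0.333, which is the smallest that 2 libraries against 2 allow. PSMB8 to PSMB5 and PSMB9 to PSMB6 could not be formed. Ratios of PSMB10 to PSMB5 and to PSMB6, added after the data were seen, were 2.003 and 2.77 higher on the log2 scale, each with an exact permutation p of 0.333 (0.333 also after Benjamini-Hochberg adjustment over the 3 ratios). Per kilobase of exon, PSMB10 stayed the lowest of the catalytic genes analysed, with group means of 10.4 (786-O-Ctrl) and 28.4 CPM (786-O-VHL). PSMB7 was at 123 and 96.8, PSMB5 at 100.01 and 67.9, and PSMB6 at 80.7 and 32.2 CPM per kilobase.

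The other subunits of the core particle mostly fell as well. Of the 13 alpha, structural beta and constitutive catalytic genes, 9 fell and 1 rose, with a median log2 fold change of -0.43. All 3 structural beta genes analysed fell. PSMB2 was at 224, 220.0, 130.2 and 136 CPM, a log2 fold change of -0.72 (SE 0.0652). PSMB4 was at 275, 274, 180.4 and 195 CPM (log2 fold change -0.53, SE 0.0645), and PSMB1 at 188, 182, 145 and 133 CPM (-0.43, SE 0.0665). Their groups did not overlap in any library.

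In the alpha ring, whose subunits form the gate of the barrel, 3 of 7 genes fell, 1 rose and 3 were not called. Falls were 42.9% and rises 14.3% of the ring, against 31.9% and 32.6% of all genes tested. PSMA7 fell most among those called and was at 421, 394, 278 and 289.9 CPM (log2 fold change -0.52, SE 0.0635, edgeR FDR 5.01e-08). PSMA4 (ENSG00000041357.16, chromosome 15, 78832747 to 78844759, plus strand) went the other way, at 173, 167, 217 and 212 CPM (log2 fold change 0.33, SE 0.0632, edgeR FDR 4.89e-05). PSMA3 had the value closest to 0, at 105.5, 103, 102 and 103 CPM. Summed over the ring, levels in 786-O-VHL were 0.872 of those in 786-O-Ctrl (0.957 with library totals alone), while the structural beta and the constitutive catalytic genes were at 0.676 and 0.662.

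PSMA1, PSMA2 and PSMA6 had low counts. PSMA1 was at 15.0, 18.6, 10.5 and 13.2 CPM (log2 fold change -0.39, SE 0.154, edgeR FDR 0.027), PSMA2 at 4.56, 3.65, 2.03 and 2.85 CPM, and PSMA6 at 3.99, 5.51, 6.78 and 4.33 CPM. The call of PSMA1 was lost by DESeq2, at an FDR below 0.01, and without the shallower 786-O-Ctrl library (-0.26) or 786-O-VHL replicate 1 (-0.33), and its value was -0.66 without 786-O-VHL replicate 2. That of PSMA5 (-0.26) was lost with library totals alone, as was that of PSMA1. Other annotated genes without a symbol cover 26.7%, 17.2% and 14.1% of the exons of PSMA1, PSMA2 and PSMA6 on the same strand, and how the counting treated such reads is not stated, so these levels are uncertain.

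The regulatory particle showed the largest falls. Of its 16 genes analysed, 15 fell and 1, PSMD7, was not called, with a median log2 fold change of -0.75. Falls were 93.8% of this list, against 31.9% of all genes tested. In all 16 both 786-O-VHL libraries were below both 786-O-Ctrl libraries, as were 4839 of all 12335 genes tested. The summed level of the regulatory particle fell to a ratio of 0.501 and that of the 13 core particle genes to 0.754 (0.550 and 0.828 with library totals alone). PSMD2 alone held 854 of the 3125 CPM of the regulatory particle in 786-O-Ctrl and 246 of 1566 in 786-O-VHL (group means). The difference between these particles was not tested.

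PSMD2 and PSMD1 are the large scaffold subunits of the base, PSMD4 is a ubiquitin receptor, and these 3 base genes without ATPase activity fell together. PSMD2 (ENSG00000175166.17, chromosome 3, 184016986 to 184026838, plus strand) was at 867, 842, 248 and 244 CPM, a 3.48-fold fall and a log2 fold change of -1.80 (SE 0.0634, 95% interval -1.93 to -1.67, edgeR FDR 1.81e-19). Of all genes tested, 2.02% had a log2 fold change at or below that of PSMD2. PSMD1 (ENSG00000173692.13, chromosome 2, 231921559 to 232037830, plus strand) was at 228, 219, 80.7 and 78.7 CPM (log2 fold change -1.49, SE 0.069, edgeR FDR 6.06e-17). PSMD4 was at 196, 178, 85.5 and 82.2 CPM (log2 fold change -1.17, SE 0.0712, edgeR FDR 2.86e-14). The libraries within each group lay close together for all 3 genes, and the summed level of the 3 was 0.324 of that in 786-O-Ctrl.

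The ATPases of the base fell less. All 5 analysed were lower, against 31.9% of all genes tested, with a median log2 fold change of -0.57. PSMC3 was at 204, 191, 102 and 110.4 CPM (log2 fold change -0.87, SE 0.0683), and PSMC1 at 81.7, 78.1, 44.8 and 53.6 CPM (-0.64, SE 0.0789). PSMC5 changed least, at 136, 131, 112 and 112 CPM (-0.26, SE 0.0658), and its call was lost with library totals alone (-0.13), after thinning to equal depth (-0.14) and without the deeper 786-O-Ctrl library (-0.24). NRDE2, on the opposite strand, shares 76.1% of the PSMC1 exons, and the use of strand in the counting is not stated.

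Of the 8 lid genes, 7 fell (87.5%, against 31.9% of all genes tested), with a median log2 fold change of -0.75. PSMD13 was at 161, 169, 72.6 and 73.6 CPM (log2 fold change -1.17, SE 0.0692, edgeR FDR 1.6e-14), and PSMD11 at 172, 166, 98.02 and 90.4 CPM (-0.87, SE 0.0684). PSMD14, the deubiquitinase of the lid that cuts ubiquitin off substrates, had a log2 fold change of -0.59 (SE 0.0671). PSMD6, PSMD12, PSMD3 and PSMD8 lay between -0.80 and -0.61. PSMD7, the partner of PSMD14 without enzyme activity, was at 57.2, 57.1, 50.9 and 54.4 CPM, with a log2 fold change of -0.09 (95% interval -0.26 to 0.07). The log2 fold change of PSMD7 was -0.17 without 786-O-VHL replicate 2. A gene on the opposite strand shares 31.2% of the PSMD7 exons, so its level is uncertain.

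**Figure D3:**
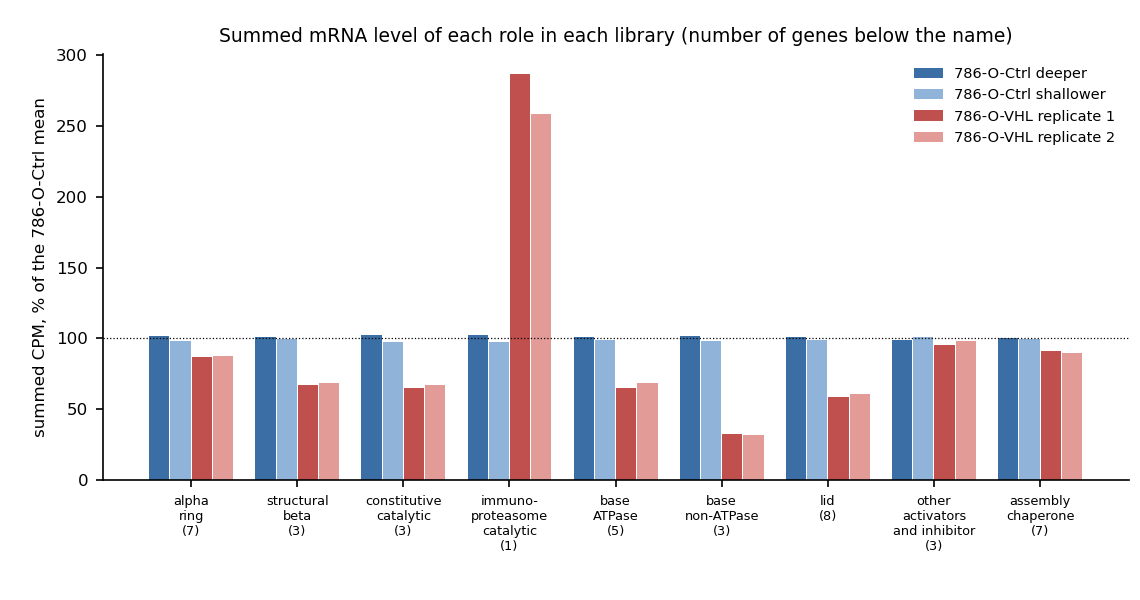
Summed CPM of the genes of each role in each library (bars), as a percentage of the 786-O-Ctrl mean (vertical axis from 0, dotted line at 100); the number of genes summed stands under each role. Base subunits without ATPase activity are lowest in 786-O-VHL (ratio 0.324), and the immunoproteasome bar is PSMB10 alone. With TMM factors, the alternative activators with the inhibitor stay closest to 786-O-Ctrl (0.965). With library totals alone they are at 1.06, and the assembly chaperones are closest (0.994).

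Genes that act on the complex from outside differed little between the groups. PSME4 encodes a nuclear activator that opens the core particle without ubiquitin and was at 101, 106, 81.1 and 83.9 CPM (log2 fold change -0.32, SE 0.0695, edgeR FDR 0.00023). PSMF1, an inhibitor, was at 136, 136, 136 and 132 CPM, and PSME3, another nuclear activator, at 192, 195, 195 and 208 CPM. Neither was called, with 95% intervals of the log2 fold change of -0.16 to 0.10 and -0.06 to 0.20. PSME1 and PSME2, which form the interferon-inducible activator, were not analysed here.

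Assembly chaperones guide subunits into the rings and the base and do not stay in the finished complex. Of 7, 4 fell (57.1%, against 31.9% of all genes tested) and 3 were not called, with a median log2 fold change of -0.27. PSMG1, which pairs with PSMG2 on the alpha ring, was at 50.8, 53.9, 39.003 and 39.2 CPM (log2 fold change -0.42, SE 0.0864, edgeR FDR 0.000131). PSMD9, a base chaperone, was at 14.4, 11.1, 7.80 and 8.79 CPM (-0.58, SE 0.177). PSMG4 had the value closest to 0, at 26.2, 23.9, 27.8 and 25.8 CPM, and its groups overlapped. Of the other calls, PSMD10 had -0.34 (-0.53 without 786-O-VHL replicate 2) and PSMD5 -0.27. The calls of PSMD9 and PSMD5 were lost by DESeq2, after thinning, without the deeper 786-O-Ctrl library (-0.38 and -0.26) and without 786-O-VHL replicate 2 (-0.73 and -0.12), and PSMD5 also with library totals alone. PSMG3 (0.18) was called by limma-voom and without 786-O-VHL replicate 1 (0.21). Its value fell to 0.11 without 786-O-VHL replicate 2 and to 0.013 after thinning. Another annotated gene covers 14.9% of the PSMD9 exons on the same strand.

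PSMC3IP, a cofactor of meiotic recombination, was at 18.1, 18.4, 4.75 and 8.61 CPM, a log2 fold change of -1.21 (SE 0.168, edgeR FDR 3.65e-07) and of -1.95 without 786-O-VHL replicate 2. It had the largest difference between the 786-O-VHL replicates of all 41 genes, 0.86 on the log2 scale, and the opposite strand shares 30.3% of its exons.

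Across the 41 genes the signed log2 fold change was only loosely related to the level. Between log2 mean CPM and log2 fold change, Pearson r was -0.24 and Spearman rho -0.23 (n = 41 genes, which share libraries and are not independent). Over all genes tested these were -0.18 and -0.20.

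**Figure D4:**
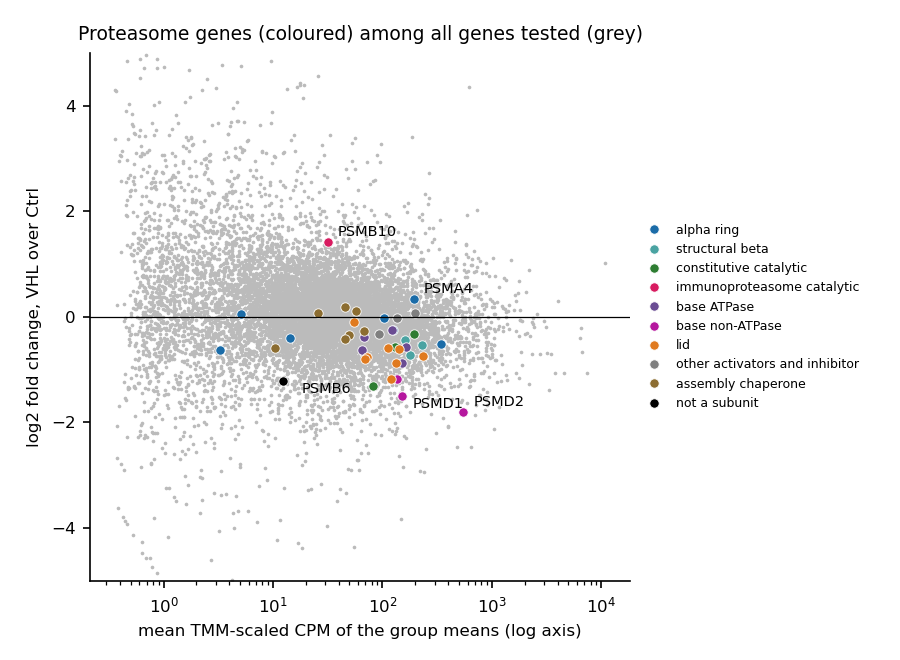
Log2 fold change (vertical axis) against mean TMM-scaled CPM (horizontal log axis) for all genes tested (grey) and the 41 proteasome genes (coloured by role); 41 genes lie beyond the limits of 5 and -5 and are not drawn. PSMD2, the proteasome gene with the highest CPM over both groups together but below PSMA7 in 786-O-VHL, fell most, and PSMB10 lies above 0 at a middle level.

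Proteasome genes without the PSM prefix were described next. Of 11, 6 fell and 2 rose, with a median log2 fold change of -0.39. Falls were 54.5% and rises 18.2% of the list, against 31.9% and 32.6% of all genes tested. UCHL5, a deubiquitinase of the regulatory particle, was at 61.6, 68.8, 27.1 and 30.4 CPM (log2 fold change -1.13, SE 0.0918). POMP, the maturation chaperone of the core particle, was at 80.3, 78.8, 47.1 and 43.1 CPM (-0.85, SE 0.0779). ADRM1, the ubiquitin receptor that binds UCHL5, was at 129, 127, 66.8 and 73.7 CPM (-0.84, SE 0.0705). Those that rose were AKIRIN2, which carries proteasomes into the nucleus, and ZFAND5, a stress-induced binding partner, with log2 fold changes of 0.55 and 0.40.

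Of 10 genes that control proteasome transcription, 6 rose and 2 fell (median log2 fold change 0.28). Rises were 60% and falls 20% of the list, against 32.6% and 31.9% of all genes tested. The number that rose was between 4 and 7 over the alternatives, with 4 without the shallower 786-O-Ctrl library or without 786-O-VHL replicate 2. NFE2L1, which encodes the transcription factor NRF1 that drives proteasome genes when the complex is inhibited, was at 429, 428, 778 and 784 CPM (log2 fold change 0.87, SE 0.0595, edgeR FDR 4.04e-13). NFE2L2, its relative of the antioxidant response, was at 109, 116, 189.9 and 200.3 CPM (0.80, SE 0.0652). MAFF, a small MAF partner of both factors, rose by 0.96 on the log2 scale, and by 0.54 without 786-O-VHL replicate 2. VCP, the ATPase that extracts proteins, NRF1 among them, from the endoplasmic reticulum membrane, was at 625, 589.5, 231 and 247 CPM (-1.34, SE 0.0649, edgeR FDR 1.9e-16). The other gene that fell, NFE2L3, had a log2 fold change of -0.17, and this call was lost by DESeq2, with library totals alone, after thinning, at an FDR below 0.01, and without the deeper (-0.17) or the shallower (-0.20) 786-O-Ctrl library.

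Upstream of the proteasome, 6 of 11 ubiquitin and shuttle genes fell and 5 were not called, with a median log2 fold change of -0.38. UBA1, the main ubiquitin-activating enzyme, was at 526, 503.99, 240.5 and 239.7 CPM (log2 fold change -1.10, SE 0.0631). UBA6, the other activating enzyme for ubiquitin, and the ubiquitin gene UBB followed, with -0.82 and -0.60. With library totals alone, 4 genes of this list were higher.

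The immunoproteasome serves class I antigen processing, and of 12 genes of that pathway tested, 7 rose and 4 fell, with a median log2 fold change of 0.48. TAP1 and HLA-E were not analysed here. HLA-F and HLA-B rose most, with log2 fold changes of 1.33 and 0.88. HLA-B was at 235, 225, 416 and 432 CPM, and reads could be shared among similar HLA genes. The falls were led by the endoplasmic reticulum chaperones CALR, PDIA3 and CANX, which also fold many other proteins, with log2 fold changes of -2.13, -0.92 and -0.40. CALR was at 1733, 1708, 387 and 396 CPM, so that HLA-F and HLA-B and the folding chaperones moved in opposite directions.

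Of 15 genes of interferon signalling, 10 rose, 2 fell and 3 were not called, with a median log2 fold change of 0.69 over the list. Rises made up 66.7% and falls 13.3%, against 32.6% and 31.9% of all genes tested. IRF1, a transcription factor known to induce immunoproteasome genes, was at 63.7, 74.7, 261 and 277 CPM (log2 fold change 1.98, SE 0.0725, edgeR FDR 4e-19). SOCS1, a feedback inhibitor of the pathway, and CIITA, the activator of class II genes, rose by 1.84 and 1.63 on the log2 scale. The CIITA value rests on 35, 32, 26 and 82 counts and lay between 1.38 and 2.23 with a library left out. The kinase TYK2 fell (-0.25), and its call was lost with library totals alone and after thinning.

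Markers of blood cells, in which immunoproteasome is abundant, were also looked up. Of 13 markers, 10 were not analysed here, PTPRC, which defines leukocytes, among them. The 3 with counts, CSF1R, CD14 and CD4, summed to 14.3, 13.7, 4.41 and 2.67 CPM, most of it CSF1R in every library. CSF1R was at 13.5, 13.6, 3.39 and 2.49 CPM (log2 fold change -2.35, SE 0.219), CD14 had 15, 1, 3 and 3 counts, and CD4 had no count outside the deeper 786-O-Ctrl library. With so few markers analysed, whether blood cells were present was not tested.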

How the data were processed

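The data are 4 libraries (2 of 786-O-Ctrl, 2 of 786-O-VHL). Per the submitters' processing notes the authors used CASAVA and STAR with hg19, and they deposited raw counts per gene. The counter, its strand setting and the annotation are not stated. Groups came from the labels. Differential expression used edgeR 4.0.16 (R 4.3.3) with filterByExpr (minimum count 10; 577 genes removed, 12335 kept), TMM, quasi-likelihood F test with group as the only term, Benjamini-Hochberg FDR over all genes tested, threshold 0.05. Standard errors follow from the F statistic, with 95% intervals. The common dispersion was 0.00186. The procedure was tested on simulated counts. Overlaps and coordinates are from GENCODE on GRCh37 (12749 of 12912 identifiers found), and exon length is the union of annotated exons. Total counts per library lay between 2807779 and 22141263. Alternatives were DESeq2 1.42.0, limma-voom (limma 3.58.1), RLE factors, library totals alone, no filter, at least 10 counts in every library, thinning to the shallowest library, an FDR of 0.01 and each library left out in turn, where the lone library is assumed to vary like the other group.

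All 41 genes could be named. Values in every library were given for VHL, PSMB10, PSMB5, PSMB6, PSMB7 and, in each role, the 2 genes with the largest absolute log2 fold change past FDR 0.05 and the 1 with the smallest. Of other lists, at most 3 genes per direction, by the size of the change, were named. PSMA4, PSMA2, PSMA6, PSME3, PSMD14, PSMC3IP and the promoter stretches were chosen after their values were seen. The members and lists were chosen with earlier results of these data known. Promoter sequences are from RefSeq (GRCh38.p14), placed in GRCh37 by exact match.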

Additional observations from a re-analysis of the deposited data

How the results depend on the processing

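Under the 12 alternatives of the processing, 28 of the 41 proteasome genes kept both direction and side of the threshold wherever they could be tested, and 13 did not under at least 1 of them. Counts over all 41 ranged from 26 to 30 lower and from 2 to 5 higher, with 5 higher under library totals alone and 2 to 3 higher with a library left out. Regulatory particle genes that fell numbered 14 to 15, and core particle genes 7 to 9. PSMB10 stayed between 1.36 and 1.55, PSMD2 between -1.83 and -1.67, and PSMB6 between -1.36 and -1.18. The log2 ratio of PSMB10 to PSMB7 lay between 1.67 and 1.91 with a library left out and was 1.90 after thinning. The ratios to PSMB5 and PSMB6 (2.003 and 2.77) were chosen after seeing the data.

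Signs turned only for genes that were not called: with library totals alone for PSMA3 (0.11), PSMD7 (0.038) and PSMF1 (0.11), after thinning for PSMA3 (0.0244) and PSMG4 (-0.0564), and for PSMA6 with a library left out (-0.16 without the deeper 786-O-Ctrl library, -0.11 without 786-O-VHL replicate 1, range -0.16 to 0.53). By construction, library totals alone raise nearly all genes in 786-O-VHL. For the other changes the cause was not tested. PSMA2 could not be tested under 2 settings, which left it out for low counts. No paired analysis was possible because both 786-O-Ctrl columns carry the same replicate number. The depth of 786-O-VHL replicate 1 limits genes of low counts such as PSMA1, PSMA2, PSMA6 and PSMD9. The ubiquitin list, without a higher gene in the main edgeR fit, had up to 4 under other settings.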
